A study of Saccharomyces cerevisiae with 2 samples.

Results

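Leucine has 6 codons, and the footprints that ribosomes left on them were followed gene by gene in budding yeast (Saccharomyces cerevisiae). Every combination of a gene and a leucine codon that the gene contains counts as a pair, for genes with at least 100 footprints. These rules gave 15528 pairs in 2939 genes, out of 157894 pairs of genes and sense codons in the same genes and 257597 pairs of genes and codons in the whole table of 4579 genes. The lowest genes kept had 100 footprints (20 genes), and the highest left out had 99 (14 genes). Of the genes kept, 1765 contained all 6 leucine codons and 1 contained none, the mating pheromone gene MFA1. The study has 1 library of ribosome-protected fragments and 1 of total RNA from strain yJC2229, whose genotype the labels do not give. Cells grew at 24 °C in YPD with 2% glucose and amino acids, received no treatment before harvest in mid-log phase, and were lysed with cycloheximide, a drug that stops elongating ribosomes. Footprints are the mRNA fragments shielded by a ribosome, here taken from the 80S fraction of a sucrose gradient. With 1 library of each kind there is no replicate, so no p-value was computed, and the 95% intervals below cover counting error alone.

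A ribosome waits at each codon until the matching charged tRNA arrives, so codons whose tRNA is scarce or pairs weakly are generally expected to hold more footprints. Yeast reads TTG and TTA with separate tRNAs that match them fully. CTA and CTG share a tRNA that matches CTA and reaches CTG by wobble pairing, and a rarer tRNA serves CTT and CTC. Highly expressed yeast genes use TTG by preference. The value given for a pair is its footprints per occurrence of the codon over the gene mean, which is all footprints of the gene divided by all its codons, and a value of 1 equals that mean. The expected footprints of a pair are its occurrences multiplied by that gene mean. Footprints are summed over all places where a gene has the codon, and the ribosomal site that was assigned to the counted codon is not given in the sources used here.

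The table held 3756929 footprints, of which 97.5% lay in the genes kept. Leucine codons took 310640 of them over 122630 occurrences, which was 8.61% of the footprints on sense codons for 9.21% of the sense occurrences. These raw shares are not set against the gene means, relative to which leucine codons averaged 1.16. A kept gene had a median of 34 leucine codons, or 9.02% of its codons.

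Per occurrence and relative to the gene mean, CTG was the highest leucine codon, at 2.61 times that mean (95% counting interval 2.56 to 2.66). It had 30350 footprints on 12722 occurrences in 2495 genes. It ranked 3 among the 61 sense codons. CTC, the rarest leucine codon with 5765 occurrences and 9347 footprints in 2013 genes, followed at 1.76 (1.69 to 1.84). CTT stood at 1.20 (1.17 to 1.24), CTA at 1.03 (1.00 to 1.06) and TTG at 1.01 (0.998 to 1.03). By this measure TTG could not be told from the average codon of its genes. TTA was the lowest, at 0.743 (0.725 to 0.763) on 34028 occurrences, and ranked 49 from the top among the sense codons. TTG, with 39415 occurrences, carried 178269 footprints and more than the other leucine codons together, which was 1.03 times the sum that the gene means give (1.03 to 1.04). That sum gives genes with more footprints more weight, and its interval lay above 1. These values are averages over occurrences, and the 4 codons that begin with C lay at or above 1, with the interval of CTA starting at 1.00.

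Individual genes varied widely around these averages. The median pair stood at 2.09 for CTG, 0.899 for CTC, 0.798 for CTT, 0.785 for CTA, 0.901 for TTG and 0.591 for TTA. Between 11.7% (TTG) and 38.8% (CTC) of the pairs of a codon held no footprint at all, and the average of CTC lay well above its median pair. Among pairs with at least 10 expected footprints, where counting error is smaller, the median was 2.27 for CTG over 272 pairs (10th to 90th percentile 0.792 to 4.59), 1.52 for CTC over 70 pairs, 1.09 for CTT over 333 pairs, 0.980 for CTA over 554 pairs, 0.961 for TTG over 1238 pairs and 0.675 for TTA over 1089 pairs (0.223 to 1.30). The order of the codons was the same in these medians as in the averages. Of the 3556 leucine pairs at that depth, 368 (10.3%) reached 2 or more, against 7.22% of the 41054 pairs of all sense codons, and 741 (20.8%) were at 0.5 or less, against 23.5%. By codon, 57.0% of CTG pairs reached 2 or more, as did 35.7% of CTC, 15.9% of CTT, 9.93% of CTA, 4.52% of TTG and 2.20% of TTA pairs. TTA had the largest share at 0.5 or less (33.2%) and CTG the smallest (5.15%).

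**Figure D1:**
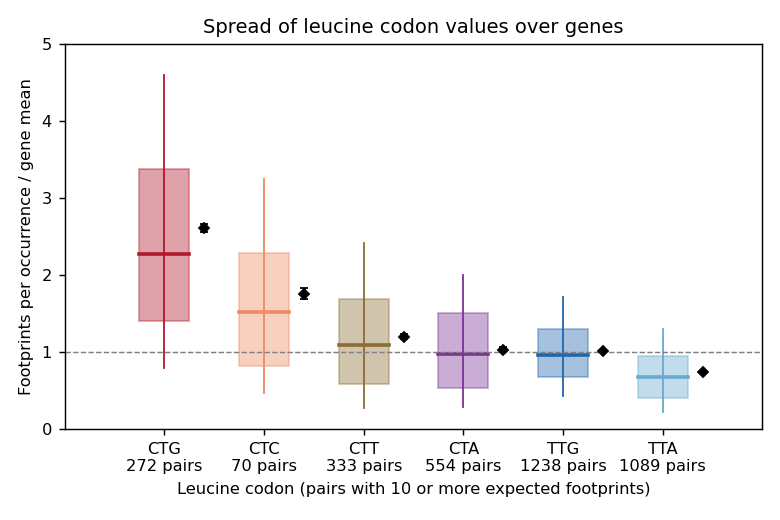
For each leucine codon, the box spans the 25th to 75th percentile and the line the 10th to 90th percentile of footprints per occurrence over the gene mean, for pairs with 10 or more expected footprints; the bar is the median, the diamond the average over all occurrences with its counting interval, and the dashed line the gene mean. The CTG box lies above 1, with a median of 2.27, and the TTA box lies below 1, with a median of 0.675.

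Where a gene has a codon once, its value rests on a single place in the mRNA, and such pairs varied far more than counting allows. In genes with a mean of 1.6 to 3.2 footprints per codon, single CTG codons held on average 5.76 footprints over 79 genes, with a variance 10.45 times the mean, 32.9% of genes at 0 and a maximum of 38. Single CTC codons had a variance 6.22 times the mean over 111 genes, and CTA 6.60 times over 59 genes. The median of this ratio over the 45 sense codons that could be measured was 6.05. With 1 occurrence in the gene, 35.0% of CTG pairs were at 0 and the 90th percentile was 6.64, while with 10 or more occurrences 7.39% were at 0 and the 90th percentile was 5.10. The counting intervals are therefore narrower than the scatter between places and genes.

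Comparing 2 leucine codons within the same gene removes the gene mean from the value. The ratio used pools genes as strata (Mantel-Haenszel), which gives genes with more footprints more weight. CTG was 3.39 times TTA (3.32 to 3.45) over the 2449 genes with both codons, 2.50 times TTG (2.46 to 2.54) over 2473 genes, 2.33 times CTA (2.28 to 2.38), 2.09 times CTT (2.04 to 2.13) and 1.39 times CTC (1.36 to 1.43). CTG was the higher codon in 520 of the 598 genes (87.0%) that had at least 5 expected footprints on both CTG and TTA, and in 82.1% of 643 genes when set against TTG. It was at least 2 times TTA in 71.9% of those 598 genes, and TTA at least 2 times CTG in 4.85%. A gene with no footprint on either codon would count in both shares. Over all amino acids, 53.7% of synonymous pairs in a gene differed by that fold in 1 direction or the other, where pairs with no footprint on either codon did not count as differing.

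CTC was 2.62 times TTA (2.54 to 2.69) and higher in 79.5% of 195 genes, but over every gene with both codons, whatever its depth, it was higher in 52.1% of 1977. TTG was 1.31 times TTA (1.30 to 1.33) over 2820 genes and higher in 1060 of 1580 genes (67.1%). CTA and TTG lay closest together. Their ratio was 1.10 (1.09 to 1.12), yet CTA was higher in 49.95% and TTG in 49.2% of 1001 genes, so no direction held over most genes. CTT against TTG (53.6% of 718 genes) and CTT against CTA (53.9% of 553 genes) were nearly even as well. In the 92 genes with at least 5 expected footprints on each of the 6 codons, CTG was the highest in 38, CTC in 29, CTT in 14, CTA in 5, TTG in 4 and TTA in 2. TTA was the lowest in 33 of them. Where codons tied for the lowest value, the gene was credited to the first in an order that begins with TTA, and such ties were not counted.

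**Figure D2:**
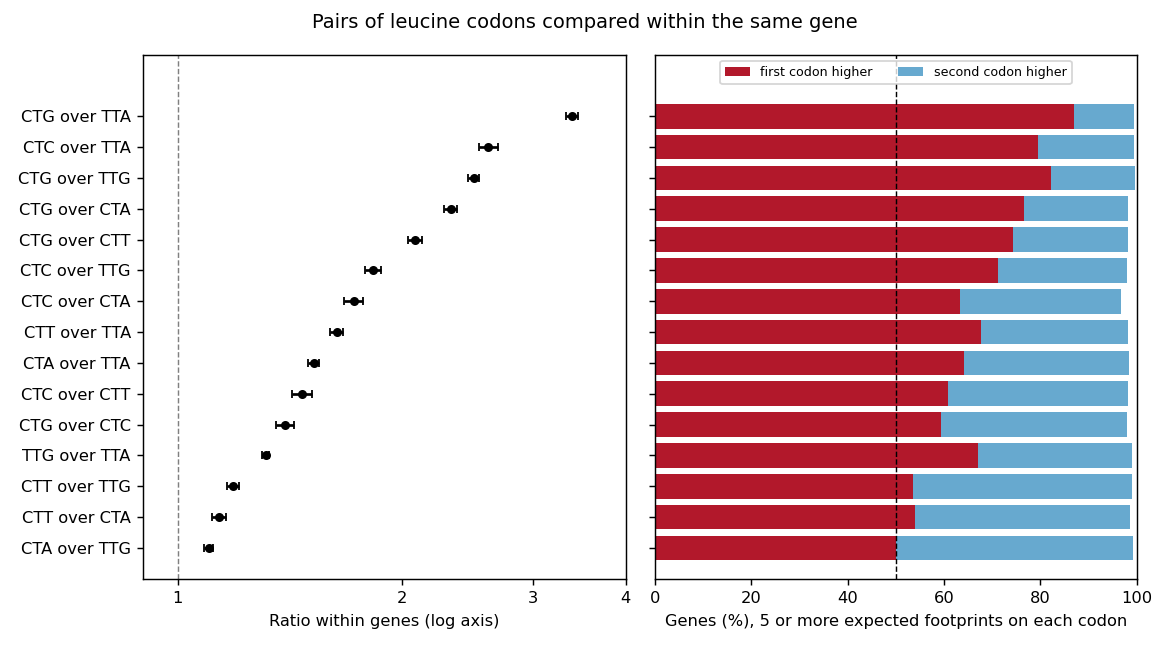
Left, ratio of footprints per occurrence between 2 leucine codons within genes, on a log axis, with counting intervals; right, the share of genes in which the first (red) or the second (blue) codon of the pair was higher, among genes with at least 5 expected footprints on each. The ratios run from 3.39 for CTG over TTA to 1.10 for CTA over TTG, and the last 3 pairs sit close to an even split of genes.

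The same ratio was taken for synonymous codons of other amino acids that differ in the last base. Among the 13 pairs that end in G or A, CTG over CTA at 2.33 was second to proline CCG over CCA at 3.72 (3.64 to 3.80) and was followed by alanine GCG over GCA at 1.77 (1.74 to 1.81). The other leucine pair of this kind, TTG over TTA at 1.31, ranked 9 of 13. Among the 16 pairs that end in C or T, CTC over CTT at 1.47 (1.43 to 1.52) ranked 3, with an interval that overlaps that of tyrosine TAC over TAT at 1.47 (1.44 to 1.49). Leucine and arginine are the amino acids with codons that differ at the first base alone and end in G or A. Here CTG was 2.50 times TTG and CTA 1.52 times TTA (1.50 to 1.55), while CGA was 3.76 times AGA (3.61 to 3.92) and CGG 1.48 times AGG (1.39 to 1.56). The first base change thus came with a larger ratio before G than before A in leucine, and the reverse in arginine.

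As a family, leucine codons averaged 1.16 (1.15 to 1.18), which was rank 5 of the 20 amino acids. Arginine, which also has 6 codons, stood at 1.29 (1.27 to 1.31), serine, with 6 codons, at 0.994 (0.984 to 1.01), isoleucine at 0.901 (0.889 to 0.913) and valine at 0.767 (0.757 to 0.778). The highest leucine codon was 3.51 times the lowest, against 3.84 times in arginine, 1.63 times in serine, 2.18 times in isoleucine and 1.80 times in valine. Pairs at 2 or more were about as common in leucine (10.3%) as in arginine (10.3% of 1626 pairs), and made up 8.56% of 3225 serine pairs.

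**Figure D3:**
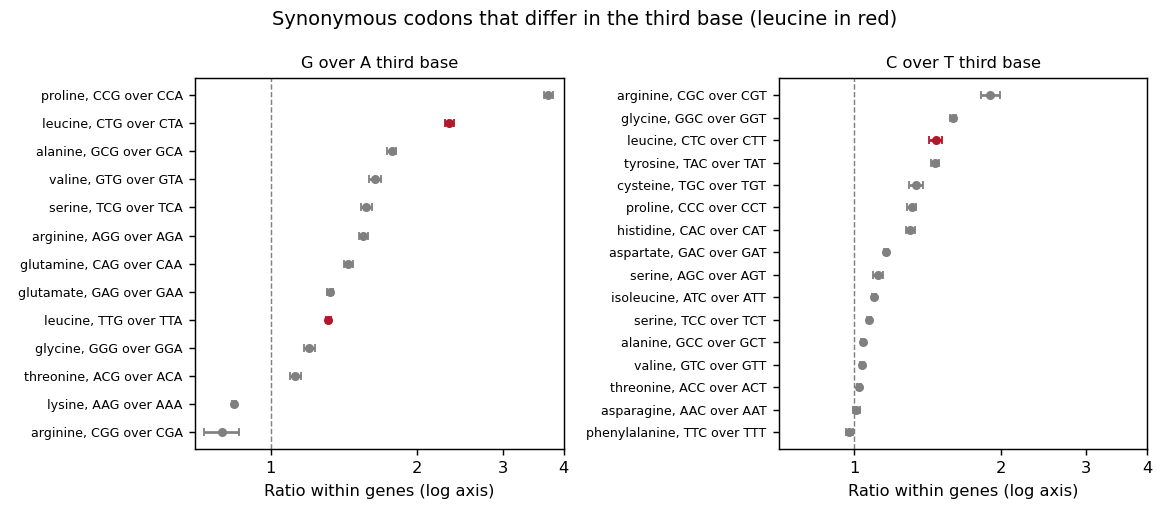
Ratio within genes of synonymous codons that end in G over A (left) and in C over T (right), on log axes, with counting intervals and leucine in red. CTG over CTA (2.33) is second to proline in its panel, and CTC over CTT (1.47) has rank 3 in the other.

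Between classes of gene length, CTG was lowest in the shortest genes, and CTC and TTG also had classes whose counting intervals lay apart. In genes of up to 200 codons (594 genes), over 200 to 400 (981), over 400 to 600 (694), over 600 to 1000 (488) and over 1000 codons (182), CTG stood at 2.30 (2.22 to 2.39), 2.55, 2.61, 2.67 and 2.71 (2.53 to 2.92). The counting interval of the shortest class did not overlap those of the others, whereas neighbouring classes above 200 codons overlapped. Counting intervals are narrower than the scatter between places and genes, and whether classes differ beyond that scatter was not tested. TTA went from 0.702 (0.675 to 0.731) in the shortest class to between 0.731 and 0.760 in the others, with overlapping intervals. CTC was 1.65 (1.57 to 1.73) in genes of over 200 to 400 codons and 1.88 (1.74 to 2.03) in those of over 600 to 1000, and TTG was 1.05 (1.02 to 1.07) in the shortest class and 0.981 (0.960 to 1.00) in the next, with intervals that did not overlap. CTT lay between 1.17 and 1.21 and CTA between 0.990 and 1.10. Within genes, CTG over TTA was 2.35 (2.24 to 2.46) in the shortest class and 3.52, 3.70, 3.75 and 3.93 (3.65 to 4.22) in the longer ones. TTG over TTA was 1.26, 1.20, 1.50, 1.51 and 1.58 in the same order, and CTC over CTT was 1.28 (1.18 to 1.39), 1.34, 1.51, 1.87 and 1.68 (1.50 to 1.88).

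The shortest class holds genes with very different depth. Among genes of up to 200 codons in the highest of 4 equal classes of the authors' deposited FPKM column, 147 genes in all, CTG stood at 1.78 (1.67 to 1.90) on 1396 footprints and TTA at 0.846 (0.827 to 0.866). In the 271 genes of the same length in the lowest class, CTG stood at 2.30 (2.18 to 2.42) and TTA at 0.651 (0.601 to 0.705). Within that lowest FPKM class, however, CTG was lowest in the 25 genes of over 600 to 1000 codons, at 2.065 (1.584 to 2.657). The shortest genes were lowest in CTG in the other FPKM classes. In the second FPKM class their value of 2.485 (2.334 to 2.651) had an interval that overlapped those of all longer genes. Of the 20 combinations of length class and FPKM class, 18 had at least 20 genes. CTG exceeded TTA in each of these 18, by 2.11 to 4.41 times, CTC exceeded TTG and TTG exceeded TTA in each of them, and CTG exceeded CTC in 17. The minimum of 100 footprints requires more footprints per codon of a shorter gene, and its part in these differences was not tested.

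Across abundance, the use of leucine codons differed, and the counting intervals of some codon values were separate. Whether values differed beyond the scatter between places and genes was not tested here either. From the lowest to the highest of 4 equal classes of the FPKM column, CTG stood at 2.56 (2.46 to 2.66), 2.57, 2.72 and 2.56 (2.46 to 2.68), TTA at 0.722, 0.728, 0.761 and 0.744, and TTG at 1.00 (0.957 to 1.05), 0.971, 0.997 and 1.05 (1.03 to 1.08). The counting intervals of the highest and lowest classes overlapped for 5 of the codons. Those of CTT were separate, but by less than the rounding of the values given here, at 1.07 (1.00 to 1.14) in the lowest class and 1.21 (1.14 to 1.30) in the highest. Some other pairs of classes also had separate intervals. CTC was 1.57 (1.46 to 1.68) in the lowest class and 1.94 (1.81 to 2.08) in the third. CTA was 0.942 (0.891 to 0.999) in the second class and 1.059 (1.005 to 1.117) in the third. The interval of TTG in the second class (0.934 to 1.009) lay below that in the highest. With the FPKM column divided by coding length, the lowest and highest classes overlapped for 4 codons, CTT among them, and were separate for TTG, at 0.931 (0.890 to 0.976) and 1.06 (1.05 to 1.08), and for CTC, at 1.72 (1.59 to 1.86) and 1.98 (1.89 to 2.09). The share of CTG pairs with no footprint was 21.6%, 17.2%, 12.7% and 6.78% over the classes, as depth per gene increased. Within genes, CTG over TTA was 3.62, 3.79, 3.44 and 3.17 (3.08 to 3.25), and TTG over TTA was 1.47, 1.43, 1.41 and 1.28 (1.27 to 1.30).

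**Figure D4:**
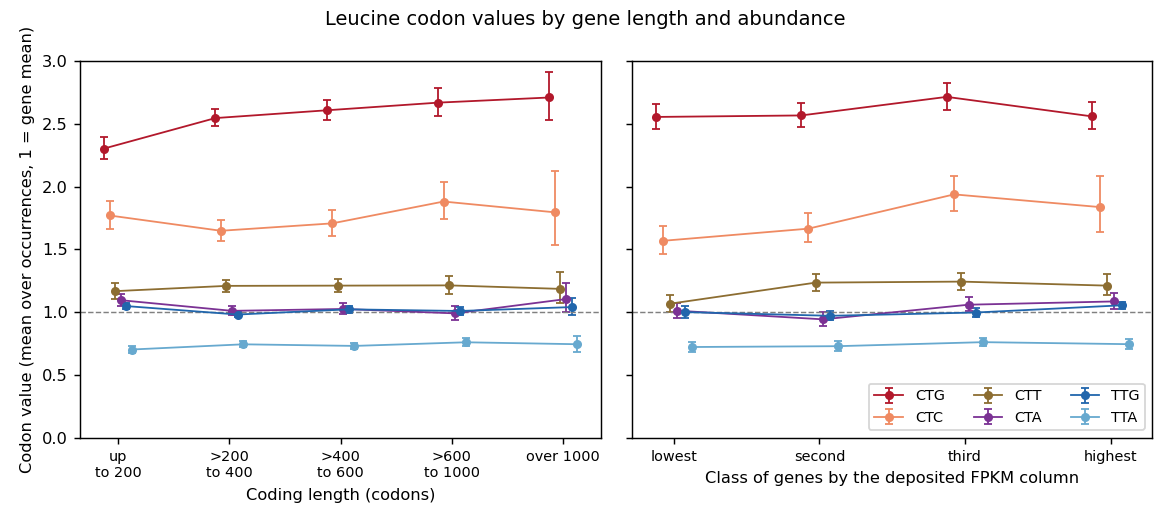
Average leucine codon value with its counting interval, by coding length (left) and by class of the genes in the deposited FPKM column (right); the dashed line is the gene mean. CTG runs from 2.30 in the shortest to 2.71 in the longest genes and lies between 2.56 and 2.72 over the FPKM classes, and TTA lies below 1 in every class.

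CTG made up 13.3% of leucine occurrences in the lowest FPKM class, 12.2% and 10.5% in the next ones and 7.66% in the highest, and CTC 7.20%, 5.72%, 4.42% and 3.10%. TTG made up 27.2%, 28.1%, 30.6% and 38.7%. TTA changed less, at 25.1%, 27.0%, 28.7% and 28.6%. CTG held 29.4% of the leucine footprints in the lowest class, more than any other leucine codon, and 5.18% in the highest, where TTG held 66.8%. These footprint shares are raw sums, in which genes with more footprints weigh more. The CTG value was 2.56 in both of these classes, and the part of codon use in the fall of its footprint share was not tested. Divided by coding length, the FPKM column gave a steeper course for TTG, from 27.3% of leucine occurrences in the lowest class to 45.1% in the highest.

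**Figure D5:**
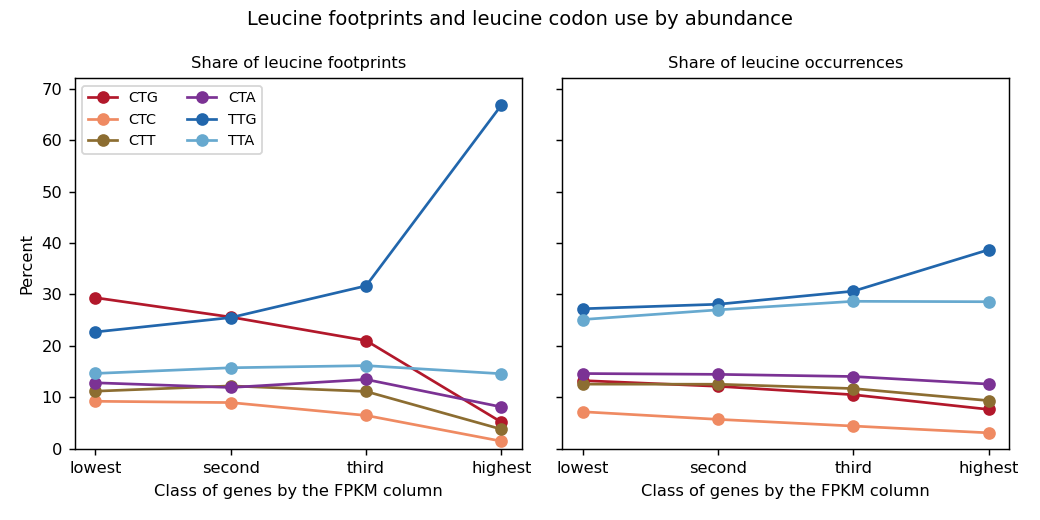
Share of leucine footprints (left) and of leucine occurrences (right) that each codon takes, by class of the genes in the deposited FPKM column. TTG reaches 66.8% of the footprints and 38.7% of the occurrences in the highest class, and CTG goes from 29.4% to 5.18% of the footprints.

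Genes also differed in the mix of leucine codons. A larger share of CTG raises the leucine value of a gene by construction, since CTG has the highest value. In the 443 genes with leucine but without CTG, all leucine codons together averaged 0.985 (0.970 to 1.00). They averaged 1.12 (1.10 to 1.14) in the 1122 genes where CTG was up to 10% of leucine codons, 1.21 (1.19 to 1.23) in 1061 genes from there to 20%, and 1.37 (1.34 to 1.41) in the 312 genes above 20%. The other 5 codons together averaged 0.985 (0.970 to 1.00), 1.01 (0.995 to 1.03), 0.979 (0.961 to 0.998) and 0.988 (0.954 to 1.02) in these sets, so without CTG the values did not follow its share. The median of the FPKM column over these 4 sets was 328.5, 129, 89.2 and 52.8, and was lowest in the genes richest in CTG. The median gene had a leucine value of 1.11, with a 10th to 90th percentile of 0.602 to 1.80.

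The pairs with the highest CTG values among the 73 with at least 20 expected footprints came from genes of 126 to 508 codons. DLD3, a 2-hydroxyglutarate transhydrogenase (YEL071W, chromosome V, 16355 to 17845, sacCer3), had 135 footprints on 3 CTG codons and a value of 6.30. DUG1, a dipeptidase of glutathione breakdown (YFR044C, chromosome VI, 239992 to 241437), had 142 on 8 codons (5.99). PUP3, a proteasome core subunit (YER094C, chromosome V, 348729 to 349346), had 135 on 5 (5.75), and CYS4, which makes cystathionine from homocysteine and serine, had 168 on 7 (5.62). In DUG1, PUP3 and CYS4 the CTG column held more footprints than any other codon, up to 13.9% of the gene's footprints in PUP3. NTF2, the import factor of the Ran GTPase, had 130 footprints on its single CTG codon (4.98) and 10 on its single CTC codon (0.383), although both are leucine codons of the same short gene.

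The low end of CTG held NCE102, a plasma membrane protein, with 0 footprints on 2 codons where 29.6 were expected, RPS31, a fusion of ubiquitin and a ribosomal protein, with 52 on 1 codon (0.455), and the tropomyosin TPM1 with 20 on 3 (0.659). For CTC, 17 pairs reached that depth. RPL11B led with 144 footprints on 1 codon (6.19), but its copy RPL11A is near-identical in codon content, so its reads are uncertain. YOP1, a membrane-shaping protein of the endoplasmic reticulum, followed with 92 on 2 (3.93) and QCR7, a respiratory chain subunit, with 70 on 4 (3.25). Besides NTF2, the lowest CTC pairs were those of SML1, an inhibitor of ribonucleotide reductase, at 0.334 and of the protein disulfide isomerase PDI1 at 0.466.

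Pairs of the more common codons also reached high values. The enamine deaminase family gene HMF1 had 256 footprints on 2 CTA codons (7.98) and RPL25 had 800 on 1 CTA codon (6.13). The calmodulin gene CMD1 had 137 on 2 CTT codons (5.50). YET1, an endoplasmic reticulum membrane protein, had 110 on 7 TTG codons (4.39), and the paralogs RPL24B and RPL24A had 873 (3.87) and 1113 (3.14) on 6 TTG codons each, with reads that match both uncertain. For TTA, RPL42B had 138 on 1 codon (4.54), SPO24 277 on 1 (4.25) and the thioredoxin TRX2 584 on 3 (4.01). Of the 28 highest pairs named by the rule, 11 (39.3%) belonged to cytosolic ribosomal proteins and 13 (46.4%) rested on a single occurrence, against 305 (16.2%) and 147 (7.79%) of the 1888 leucine pairs with at least 20 expected footprints. Of the 18 lowest, 7 belonged to ribosomal proteins and 10 rested on a single occurrence. These shares are not matched by codon: the rule names similar numbers of pairs per codon, whereas 799 of the 1888 were TTG and 621 TTA. At that depth, single occurrences made up 1.00% of TTG, 6.92% of TTA, 13.7% of CTG, 19.7% of CTA, 25.4% of CTT and 29.4% of CTC pairs.

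Some genes with many expected footprints had none on a leucine codon. TEF2 and TEF1, which encode the same elongation factor eEF1A, had 0 footprints on 21 TTG codons each, where 255 and 213 were expected from their gene means. Their codon contents are near-identical, and 17 of the 34 sense codons that each contains were at 0. RPL41A and RPL41B, another near-identical pair, had 0 on their single CTT codon, with 5 of 11 and 6 of 12 codons at 0, and RPL1B, near-identical to RPL1A, had 0 on 2 CTA codons with 15 of 34 codons at 0. How the authors treated reads that match several genes is not given in the sources used here, and its part in these zeros was not tested. The measure for near-identical copies compares the codon counts of whole genes, and it did not mark the paralogs RPL24A and RPL24B. Paralogs can thus go unmarked, and reads shared with an unmarked copy were not tested. Zeros also occurred in genes that the measure did not mark. RPS25B (38.3 expected) and CPR1, a cyclophilin (28.0 expected), had 0 on their single TTA codon. The S-adenosylhomocysteine hydrolase gene SAH1 had 0 on its CTT codon (22.4 expected), and HNT1 had 0 on 3 CTA codons (24.8 expected). In RPS25B that codon was the only 1 of 32 sense codons at 0, and in SAH1 the only 1 of 44, whereas HNT1 had 4 of 50 and CPR1 11 of 40 at 0. ZRC1, a vacuolar zinc transporter, had 1 footprint on 17 TTG codons where 24.6 were expected.

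The 5 genes with the most leucine footprints were the enolase gene ENO2 (7445), the pyruvate decarboxylase gene PDC1 (6757), the cell wall gene CCW12 (6253), the phosphoglycerate mutase gene GPM1 (5441) and the aldolase gene FBA1 (4945). TTG is the most common leucine codon in each of them. CCW12 has 9 TTG codons and no other, at 1.30. ENO2 has 35 TTG codons at 1.31 and 1 CTA codon with 383 footprints, at 2.52, and its 2 TTA codons had 111 footprints, at 0.366. PDC1 had TTG at 1.12 and TTA at 0.290. FBA1 went the other way: its 7 TTA codons held 2312 footprints (1.50) and its 17 TTG codons 2633 (0.705). GPM1 had TTA at 1.35 and TTG at 1.24, so neither gene followed the order of the averages.

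The 18 glycolytic and fermentation genes were all kept, and 72.8% of their leucine codons were TTG. TTG averaged 1.02 (0.986 to 1.06) in them and TTA 0.903 (0.792 to 1.03), against 1.01 and 0.743 over all genes kept. CTG was rare, with 17 occurrences in 5 genes, and stood at 2.36 (1.88 to 2.97) on 146 footprints. Each of the 5 pairs was above 1, as were 71.4% of the 2495 CTG pairs of all genes kept. TDH3 and TDH2, glyceraldehyde phosphate dehydrogenases that are close paralogs, had low TTG values of 0.557 and 0.407, while their paralog TDH1 had 1.20, and reads that match more than 1 of them cannot be assigned with certainty. The 138 cytosolic ribosomal protein genes had a median leucine value of 0.905 with 52 above 1, against a median of 1.11 with 1791 of 2938 above 1 in all genes kept that have leucine. TTG made up 74.2% of their leucine codons, at 0.963 (0.951 to 0.978), and CTG 0.423%, with 7 occurrences in 4 genes. The median leucine value was 0.937 in the 443 genes with leucine but without CTG, a set that holds most of these ribosomal protein genes.

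The 12 listed genes of leucine and branched-chain synthesis and charging had 11 members kept. LEU3, the transcription factor of the pathway, had 26 footprints and was left out, with none of the 26 on a leucine codon. In this group TTG averaged 1.46 (1.36 to 1.56) on 3303 footprints, against 1.01 over all genes kept. TTG exceeded 1 in 9 of the 11 genes with a median of 1.55, against 43.0% of 2906 genes and a median of 0.901. Those 2906 genes include many of low depth, and the median was 0.961 over the 1238 TTG pairs with at least 10 expected footprints. The group average counts each occurrence equally. ILV5 and LEU2, the genes of the group with the most TTG footprints (1149 and 1045), lay below it. The values were 2.10 in LEU9 and 1.81 in LEU4, the isopropylmalate synthases, 1.97 in the isopropylmalate isomerase LEU1, 1.65 in the acetolactate synthase ILV2, 1.61 and 1.46 in the aminotransferases BAT2 and BAT1, 1.55 in the leucyl-tRNA synthetase CDC60, 1.35 in the isopropylmalate dehydrogenase LEU2 and 1.11 in the dihydroxyacid dehydratase ILV3. ILV5, the reductoisomerase, stood at 0.993 and ILV6, the regulatory subunit of acetolactate synthase, at 0.832. TTA averaged 0.721 (0.632 to 0.829) in the group, close to its level over all genes, and CTG 1.74 (1.29 to 2.32) on 123 footprints. CTC averaged 4.28 (3.66 to 5.01) on 12 occurrences, of which the 2 in ILV2 held 88 of 216 footprints (14.8) and the 2 in LEU1 held 71 (4.98). LEU9 and LEU4 are paralogs, as are BAT1 and BAT2.

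Of the 20 listed amino acid permeases 13 were kept. CTG averaged 2.48 (2.09 to 2.95) and exceeded 1 in 11 of 13 genes, against 71.4% of all genes with CTG. CTG ranged from 0.194 in the tryptophan permease TAT2, where 15 CTG codons held 1 footprint, to 7.74 in the branched-chain permease BAP2, where 2 held 15. Both pairs had fewer than the 10 expected footprints required for calls. TAT2 was low on leucine codons as a whole, with 6 footprints on 57 of them and a leucine value of 0.306. Of the genes with the largest share of leucine codons, YOS1 and ERV14, both of transport between the endoplasmic reticulum and the Golgi, had 19.5% and 19.4% leucine and leucine values of 1.40 and 1.06. KEG1, of cell wall glucan synthesis, had 19.4% and a value of 1.52, the fatty acid elongation enzyme PHS1 17.9% and 1.02, and MRA1 17.8% and 0.512. In YOS1, 33 of 66 leucine footprints lay on 4 CTG codons and 2 on 6 TTA codons.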

How the data were processed

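The deposited table has 1 row per gene. Per the file headers, 64 columns give raw footprint counts, 1 for each codon, which the authors summed over the places where a gene has it. A second set of 64 deposited columns, read here as counts of occurrences of each codon in the coding sequence, set the denominators, and 0 leucine footprints lay where a codon does not occur. The authors' abundance column is headed FPKM, but its values behave as CPM, since 100% of them are whole multiples, within 0.001, of a step of 0.0459; it names no library and was used to class genes. Tools named in the submitters' processing notes are cutadapt, Bowtie2, HISAT2 and HTSeq, on build sacCer3, with no settings. No codon value was divided by an RNA value, so sequence preferences of the library preparation remain in the values.

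The gene mean is the footprint sum over the codon sum, stop codons included. Average values carry gamma intervals for a weighted sum of Poisson counts with the gene mean taken as fixed, and ratios within genes carry Greenland-Robins intervals. Both cover counting error only, and amplified reads are not independent molecules. Calls used a fold of 2 and at least 10 expected footprints. Named pairs are the 5 highest and 3 lowest per codon (3 and 3 for CTC) with at least 20 expected footprints. The 5 genes with the most leucine footprints, the 5 with the largest leucine share and the leucine synthesis list were also named; other genes were chosen after their values were seen. The members and gene lists were chosen with earlier results of these data known. Genes count as near-identical when their codon occurrences differ by 5% or less (29 of the genes kept). Symbols and coordinates come from RefSeq assembly R64 (sacCer3), which matched 4578 of the gene identifiers. The estimators were tested on simulated Poisson counts with a fixed factor per codon. Such counts lack the scatter between places and genes seen here, so the test does not show that the intervals cover it. Python 3.11.15, pandas 2.3.3, numpy 2.4.6, scipy 1.17.1 and matplotlib 3.10.9 were used.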

Additional observations from a re-analysis of the deposited data

How the results depend on the processing

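Of 111 alternative values, 65 stayed within the counting interval of the value reported, and 3 crossed the gene mean. CTA was 0.971 (0.939 to 1.00) with a minimum of 30 footprints per gene, and with pairs capped at the 90th percentile of their codon CTA was 0.936 and TTG 0.956. The cause of this and the other moves was not tested. With 30 footprints TTA was 0.701. With a minimum of 1000 footprints TTG was 1.06, CTT 1.25, CTC 2.09, CTA 1.11, CTG 2.72 and the family 1.11; within genes CTG over TTA was 3.12, CTG over CTA 2.22 and TTG over TTA 1.29, and 11.8% of pairs were at 2 or more. With leucine left out of the gene mean, TTA was 0.769, TTG 1.05, CTT 1.25, CTC 1.84, CTA 1.07, CTG 2.74 and the family 1.21. Without the codon that holds most footprints in each gene, CTA was 1.08, CTG 2.45 and the family 1.15, with ratios of 3.26 (CTG over TTA), 2.15 (CTG over CTA) and 1.26 (TTG over TTA). Capped at the 90th percentile, TTA was 0.683, CTT 1.08, CTC 1.52, CTG 2.43 and the family 1.07, with ratios of 3.47 (CTG over TTA) and 1.35 (TTG over TTA). As observed over expected sums, TTA was 0.774, TTG 1.03, CTC 1.88, CTA 1.13, CTG 2.53 and the family 1.07. With each pair counted once the family was 1.35. The share of pairs at 2 or more was 14.3% with at least 5 and 6.78% with at least 20 expected footprints. With FPKM divided by coding length, CTG was 2.76, 2.46 and 2.60 in the 3 classes below the highest. The order CTG, CTC, CTT of the 3 highest and TTA as the lowest held in each of these settings. Leaving out stop codons from the gene mean, capping at the 99th percentile, and leaving out near-identical or overlapping genes moved no value outside its interval. The overlap setting was chosen after seeing the data. No paired analysis was possible because there was 1 library of each kind, which also leaves no library to drop.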
